A study of Mus musculus with 8 samples.

Results

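Integrins are the cell's receptors for extracellular matrix, each built of 1 alpha and 1 beta chain, and laminins are the basement membrane proteins that several of them bind, each built of 1 alpha, 1 beta and 1 gamma chain. The genes of both families were taken by their symbols: every gene named Itga or Itgb with a chain number or letter, and every gene named Lama, Lamb or Lamc with a chain number. This gave 37 genes, 26 integrins and 11 laminins, out of 25428 gene rows measured, and all 37 had a value in all 8 samples. The study asked what forced activity of beta-catenin, the nuclear effector of canonical Wnt signaling, does to liver sinusoidal endothelial cells (LSECs). RNA of LSECs isolated with beads against CD146 from 2-month-old female C57BL/6J mice was hybridized to 8 Affymetrix mouse gene arrays, 4 of the group Ctrl and 4 of the group Ctnnb1OE-EC, and each array held the cells of 2 pooled mice. Ctrl samples carry the genotype label wild-type, and the labels do not say whether these mice had the Cre or the floxed allele alone. Ctnnb1OE-EC mice carried Clec4g-iCre tg/wt, a Cre driven by Clec4g, a gene of the sinusoidal endothelium, together with Ctnnb1(Ex3) fl/wt, from which Cre removes exon 3 so that beta-catenin escapes degradation. As a model this line has a limit: the same Cre is active in endothelium of the heart, and the mice have heart disease. Values are log2 expression and every difference below is Ctnnb1OE-EC minus Ctrl.

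As background, the liver sinusoid differs from an ordinary capillary in having no continuous basement membrane, so its endothelium meets loose collagen and fibronectin more than laminin. The integrin chains alpha1, alpha2, alpha10 and alpha11 pair with beta1 to bind collagens, alpha3, alpha6 and alpha7 bind laminins, and alpha5, alphav, alpha8 and alphaIIb bind ligands with an Arg-Gly-Asp motif such as fibronectin. In blood vessels laminin mostly holds the alpha4 or alpha5 chain with a beta and the gamma1 chain, whereas the alpha3 and beta3 chains belong to the laminin of epithelial anchorage.

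Beta-catenin acts on genes through TCF/LEF factors, so the member promoters at hand were searched for the core of their motif, CTTTGA or CTTTGT, on both strands. The window ran from 250 bases before to 50 bases after each start in the RefSeq table of build GRCm38.p6, which held 26 promoters of 23 of the 37 members (62.2%). CTTTGA was found in 5 of the 26 (19.2%) and in 5257 of all 32851 promoters (16%), CTTTGT in 2 of the 26 (7.69%) and in 6147 of all (18.7%), and either in 7 of the 26 (26.9%) and in 10249 of all (31.2%). A match is a description of the letters and not a binding site. The sequences below are those of Itga1, which passed the test of the array data, of its chromosomal neighbor Itga2, of Itgb1, which encodes the chain that both pair with, and of Itgav, whose groups did not overlap. They are printed 5′ to 3′ on the strand of the gene with the motif in capitals. Itga1 (chr13:115101915-115102214, minus strand) had CTTTGA starting at -113 from the start, Itgb1 (chr8:128685404-128685703, plus strand) had CTTTGT starting at -85, and neither motif was present in the windows of Itga2 (chr13:114932051-114932350, minus strand) and Itgav (chr2:83724147-83724446, plus strand). The base composition ran from 56.7% GC in Itga1 and 59.3% GC in Itga2 to 67.3% GC in both Itgb1 and Itgav.
Itga1: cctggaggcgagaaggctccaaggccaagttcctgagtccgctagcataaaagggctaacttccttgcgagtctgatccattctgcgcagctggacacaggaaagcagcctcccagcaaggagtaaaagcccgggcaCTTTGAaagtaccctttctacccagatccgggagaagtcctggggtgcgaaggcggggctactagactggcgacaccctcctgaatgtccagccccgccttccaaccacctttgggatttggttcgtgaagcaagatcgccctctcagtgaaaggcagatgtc
Itga2: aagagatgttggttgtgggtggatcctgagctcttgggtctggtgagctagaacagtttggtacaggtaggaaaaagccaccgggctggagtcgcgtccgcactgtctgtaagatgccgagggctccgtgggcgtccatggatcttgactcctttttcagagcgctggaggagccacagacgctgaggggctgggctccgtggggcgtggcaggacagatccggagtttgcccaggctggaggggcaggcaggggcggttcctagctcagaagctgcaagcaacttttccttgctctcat
Itgb1: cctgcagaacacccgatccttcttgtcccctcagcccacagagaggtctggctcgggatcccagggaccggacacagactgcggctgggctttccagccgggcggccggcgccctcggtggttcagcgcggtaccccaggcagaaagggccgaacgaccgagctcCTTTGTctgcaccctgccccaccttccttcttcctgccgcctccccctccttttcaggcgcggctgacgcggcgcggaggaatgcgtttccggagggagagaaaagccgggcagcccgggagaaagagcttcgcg
Itgav: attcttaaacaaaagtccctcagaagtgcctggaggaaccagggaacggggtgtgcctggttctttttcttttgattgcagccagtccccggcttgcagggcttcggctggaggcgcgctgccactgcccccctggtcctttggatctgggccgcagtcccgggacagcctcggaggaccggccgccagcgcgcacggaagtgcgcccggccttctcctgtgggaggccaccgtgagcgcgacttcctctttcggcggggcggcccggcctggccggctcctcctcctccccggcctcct

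The arrays had the same median of 4.20 log2 units, since the authors had quantile-normalized them, and samples correlated at 0.975 to 0.992 over all rows. The 8 LSEC markers were all above the array median, and their mean, set to 0 in Ctrl, ran from -0.07 to 0.10 in Ctrl and from -0.50 to -0.22 in Ctnnb1OE-EC, while the mean of 5 pan-endothelial markers ran from -0.11 to 0.09 and from -0.03 to 0.16. Lyve1, the hyaluronan receptor of LSECs, fell by 1.78 (limma adjusted p = 0.0178), a call that held in 13 of 18 alternatives (adjusted p up to 0.130, by the methods' test as rerun here, which takes the variance of each gene on its own) and was lost, among single samples, without Ctrl sample 4 (adjusted p = 0.0697) or Ctnnb1OE-EC sample 3 (adjusted p = 0.0712). Lyve1 was the 1 LSEC marker of 8 called, and the mean of the other 7 ran from -0.09 to 0.05 in Ctrl and from -0.24 to -0.03 in Ctnnb1OE-EC, so that the groups overlapped without it. Of the 8 markers singly, 7 had a lower mean in Ctnnb1OE-EC. The groups did not overlap for 4 of the 8 (50%, against 7.59% of all rows), Lyve1 among them. Ctnnb1 itself went from 10.28 ± 0.26 to 10.63 ± 0.07 (SD, n = 4 each), a difference of 0.34 that did not pass (limma adjusted p = 0.361), and with 1 row for the whole gene the loss of exon 3 could not be read. Clec4g, the gene behind the Cre, differed by -0.15 (limma adjusted p = 0.546). Ctnnb1OE-EC samples 3 and 4 stood apart on the first principal component (30.6% of variance) and Ctrl sample 3 and Ctnnb1OE-EC sample 1 at opposite ends of the second (22.5%), and the Kupffer cell marker mean was lowest in Ctrl sample 3 (-0.996) and Ctnnb1OE-EC sample 2 (-1.14).

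Of the 37 integrin and laminin genes, 1 passed the test between the groups (limma, Benjamini-Hochberg adjusted p under 0.05 over all rows), and this was Itga1, which was lower in Ctnnb1OE-EC. The share was 2.7% of the members, against 0.920% of all rows called in either direction and 0.385% called lower. An unadjusted p under 0.05 was found for 5 members (13.5%), which was close to the 11.5% of all rows. The groups did not overlap for 5 members (13.5%), namely Itga1, Itga6, Itgav, Lama3 and Lamc1, against 7.59% of all rows. The mean was higher in Ctnnb1OE-EC for 21 members and lower for 16, with a median difference of 0.02 against -0.01 for all rows. Among the integrins 16 were higher and 10 lower (median 0.06), and among the laminins 5 were higher and 6 lower (median -0.01). The signal was above the array median in both groups for 25 members and below it in both for 11, among them Itga2, Itga10, Itga11, Itgad, Itgae, Itgb6, Itgb8, Lama1, Lama2 and Lamb3, and Itgax was below it in 1 group.

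**Figure D1:**
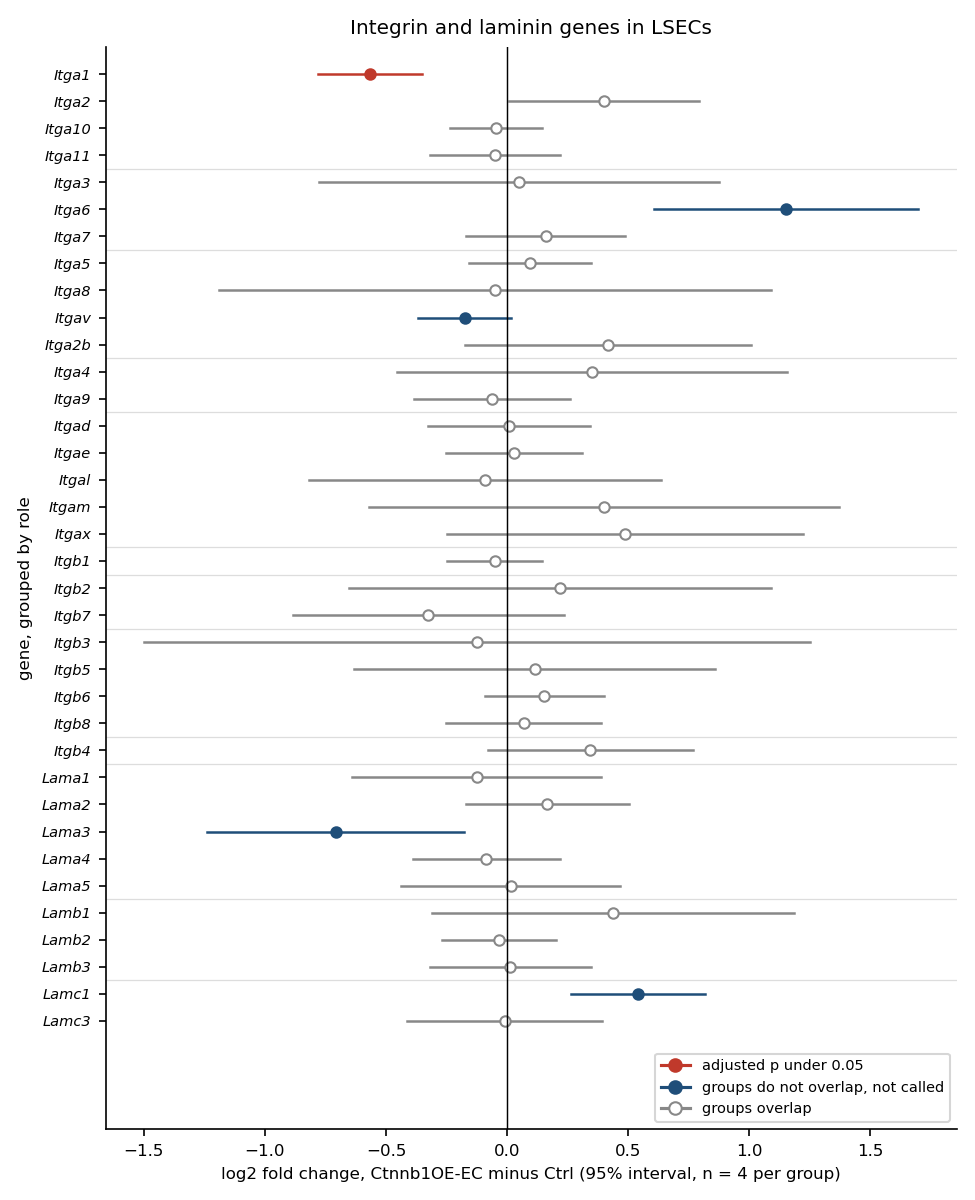
Difference in log2 expression, Ctnnb1OE-EC minus Ctrl, on the x axis for 36 of the 37 genes on the y axis, with points for the estimate and bars for the 95% confidence interval of limma (n = 4 per group); red marks the gene that passed, blue the genes whose groups do not overlap without passing, and open gray points the genes whose groups overlap. Itga1 at -0.56 is the red point, Itga6 at 1.15 lies farthest to the right and Lama3 at -0.71 farthest to the left, and the widest bar belongs to Itgb3.

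Among the collagen-binding chains, Itga1 encodes the alpha1 chain of the collagen receptor alpha1beta1. It measured 10.96, 11.04, 11.18 and 10.93 in the 4 Ctrl samples and 10.49, 10.498, 10.32 and 10.54 in the 4 Ctnnb1OE-EC samples. Every Ctnnb1OE-EC sample lay below every Ctrl sample, and the gap between the groups was wider than the range of either. The mean went from 11.03 ± 0.11 to 10.46 ± 0.10 (SD, n = 4 each), a difference of -0.56 (SE 0.0952, 95% interval -0.78 to -0.35) or 1.48-fold lower, with a limma adjusted p of 0.0313 and an exact two-sided permutation p of 0.0286, the smallest that 4 against 4 allows. The call was lost without any 1 of the 8 samples (limma adjusted p from 0.0583 without Ctnnb1OE-EC sample 2 to 0.107 without Ctrl sample 2) and with the replicate number as a block (adjusted p = 0.197) and by the methods' test as rerun here (adjusted p = 0.0783), while the difference stayed between -0.60 and -0.51 in all alternatives. The paper, by its own test, lists Itga1 as significantly lower, a call that the rerun here did not reproduce. The LSEC marker mean was lower in the same 4 samples with Lyve1 and overlapped without it, and its part in the result was not tested. In bulk RNA fewer cells of a type and less RNA per cell cannot be told apart.

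Itga2, which encodes the alpha2 chain of another collagen receptor, lies next to Itga1 with no coding gene between them in the RefSeq annotation. It measured 3.23, 3.82, 3.72 and 3.78 in Ctrl and 3.99, 3.77, 4.43 and 3.96 in Ctnnb1OE-EC, below the array median in the means of both groups. The groups overlapped, since Ctnnb1OE-EC sample 2 fell within the Ctrl range. The difference was 0.40 (SE 0.17, 95% interval 0.01 to 0.79), which did not pass (limma adjusted p = 0.424, exact two-sided permutation p = 0.0857). Itga10 and Itga11, the other collagen-binding chains, were also below the array median and both differed by -0.05, with adjusted p of 0.894 and 0.927. Thus 1 of the 4 collagen-binding chains passed, and it was the one above the array median.

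Among the laminin-binding chains, Itga6 encodes alpha6, which pairs with beta1 or beta4. It measured 8.55, 8.82, 7.64 and 8.76 in Ctrl and 9.41, 9.67, 9.78 and 9.52 in Ctnnb1OE-EC. All 4 Ctnnb1OE-EC samples were above all 4 Ctrl samples, and Ctrl sample 3 lay well below the other Ctrl samples. The means were 8.44 ± 0.55 and 9.59 ± 0.16 (SD, n = 4 each), a difference of 1.15 (SE 0.24, 95% interval 0.61 to 1.70) or 2.22-fold, the widest among the 37 genes, and it did not pass (limma adjusted p = 0.0775, exact two-sided permutation p = 0.0286). Without Ctrl sample 3 the difference was 0.89 and did pass (adjusted p = 0.0262), and without both Ctrl sample 3 and Ctnnb1OE-EC sample 2 it was 0.86 and did not (adjusted p = 0.0547). The mean of the lymphatic endothelial markers measured, 2 of the 3 listed, ran from -0.25 to 0.23 in Ctrl and from 0.08 to 1.05 in Ctnnb1OE-EC, and that of the 5 smooth muscle markers from -1.18 to 1.87 and from -0.70 to 1.96. Their part in the Itga6 values was not tested.

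None of the other laminin-binding chains passed. Itga3 differed by 0.05 (95% interval -0.78 to 0.87, limma adjusted p = 0.979) and ranged from 4.41 to 5.63 in Ctrl and from 4.26 to 5.98 in Ctnnb1OE-EC. Itga7 differed by 0.16 (95% interval -0.17 to 0.49, limma adjusted p = 0.753). Itgb4, whose chain pairs with alpha6 alone and anchors epithelia at hemidesmosomes, measured 4.57, 4.80, 3.99 and 4.36 in Ctrl and 4.60, 4.51, 5.04 and 4.94 in Ctnnb1OE-EC. These groups overlapped, with Ctrl sample 3 again the lowest, and the difference of 0.34 (SE 0.19) did not pass (limma adjusted p = 0.549). Itgb1, whose chain is the partner of most alpha chains listed here, measured 10.96, 11.09, 10.91 and 10.996 in Ctrl and 10.93, 10.83, 10.96 and 11.02 in Ctnnb1OE-EC. The groups overlapped over most of their range, and the interval of the difference was -0.25 to 0.14 (adjusted p = 0.882).

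**Figure D2:**
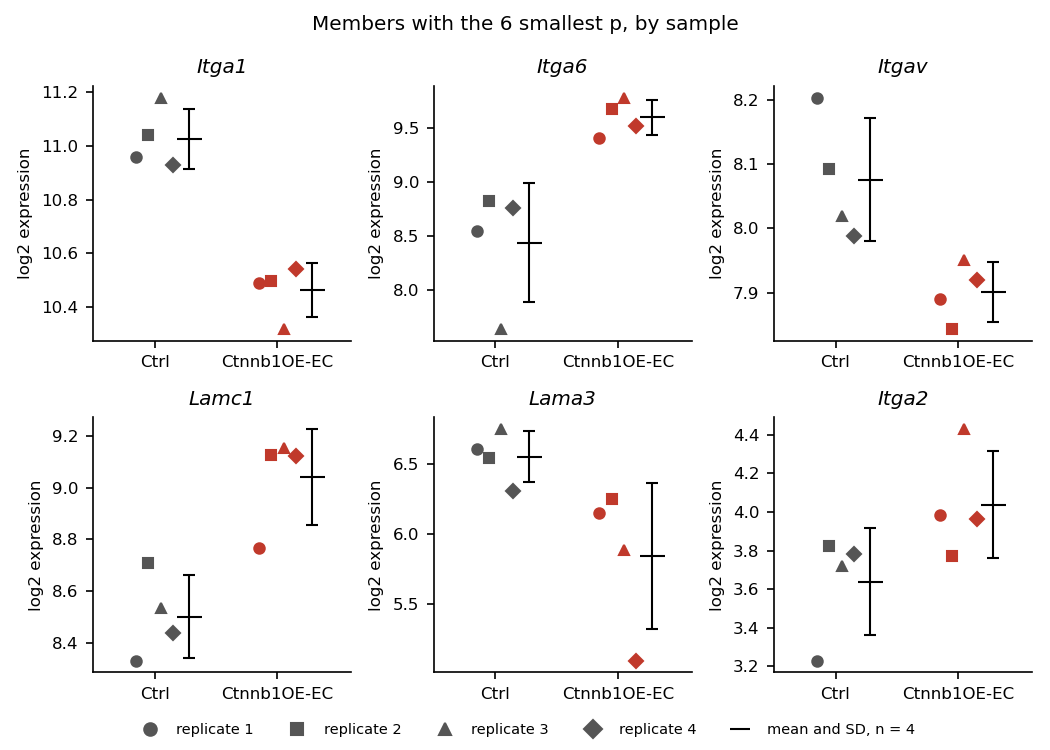
Log2 expression (y axis, a separate scale in each panel) of the 6 genes with the smallest p in the Ctrl and Ctnnb1OE-EC samples (x axis); each symbol is 1 array, shaped by replicate number, and the bars give the mean and SD (n = 4). Itga1, Itgav and Lama3 lie lower and Itga6 and Lamc1 higher in every Ctnnb1OE-EC sample than in any Ctrl sample, and Itga2 overlaps.

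Among the chains that bind Arg-Gly-Asp ligands, Itgav encodes alphav, a receptor chain for vitronectin and fibronectin. It measured 8.20, 8.09, 8.02 and 7.99 in Ctrl and 7.89, 7.84, 7.95 and 7.92 in Ctnnb1OE-EC. The groups did not overlap, but the lowest Ctrl and the highest Ctnnb1OE-EC values were nearly equal. The difference of -0.17 (SE 0.0849, 95% interval -0.37 to 0.02) did not pass (limma adjusted p = 0.488, exact two-sided permutation p = 0.0286). Itga5, the fibronectin receptor chain alpha5, ranged from 8.74 to 9.18 in Ctrl and from 9.002 to 9.16 in Ctnnb1OE-EC, and its difference of 0.09 had an interval of -0.16 to 0.35 (adjusted p = 0.818). Itga9, whose chain binds tenascin C and other matrix ligands, ranged from 10.35 to 10.52 and from 10.03 to 10.72, and differed by -0.06 (adjusted p = 0.921).

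Of the beta chains that pair with alphav, Itgb3, Itgb5, Itgb6 and Itgb8, none passed, and the differences ran from -0.12 to 0.15. Itgb6, a chain of epithelia, measured 2.34, 2.69, 2.69 and 2.57 in Ctrl and 2.79, 2.82, 2.58 and 2.72 in Ctnnb1OE-EC, below the array median throughout. The groups overlapped, and the difference of 0.15 (SE 0.11) did not pass (limma adjusted p = 0.663). Itgb3 was the most variable of the 37 within a group: it measured 7.45, 7.49, 8.48 and 7.43 in Ctrl and 6.40, 7.18, 7.13 and 9.63 in Ctnnb1OE-EC. Both the lowest and the highest value were Ctnnb1OE-EC samples, 1 and 4. Its difference of -0.12 had an interval of -1.50 to 1.25 (adjusted p = 0.965), so a change in either direction larger than that of Itga1 lies within it.

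Itga2b, which encodes alphaIIb, the partner of beta3 on platelets, measured 5.05, 5.07, 5.18 and 4.995 in Ctrl and 4.66, 5.38, 5.95 and 5.98 in Ctnnb1OE-EC. Ctnnb1OE-EC samples 2, 3 and 4 were above all Ctrl samples and sample 1 was below them. For Itgb3, Ctnnb1OE-EC samples 1, 2 and 3 were below all Ctrl samples and sample 4 was above them. The difference of 0.42 (SE 0.26) did not pass (limma adjusted p = 0.617, exact two-sided permutation p = 0.314). The mean of the 7 megakaryocyte and platelet markers, 3 of them above the array median, ran from -0.08 to 0.16 in Ctrl and from -0.06 to 0.22 in Ctnnb1OE-EC, with the highest value in Ctnnb1OE-EC sample 4. In Ctrl sample 3, where Itgb3 was high, that mean was the lowest of the 8. Pf4, a platelet chemokine gene and 1 of those 3 markers, measured 4.64, 5.01, 5.26 and 5.77 in Ctnnb1OE-EC, in the same order as Itga2b. Of the same 3 markers, Gp9 measured 4.99, 5.17, 5.13 and 5.25 and Treml1 4.26, 4.73, 4.10 and 4.20, in other orders. In Ctrl, Pf4 was lowest in sample 3 (4.50), where Itga2b was highest. The part of platelets in Itgb3 and Itga2b was not tested.

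The integrins of leukocytes varied more between samples than between groups. Itgal and Itgam encode the alpha chains of LFA-1 and Mac-1, which pair with the beta2 chain of Itgb2, and Itga4 encodes alpha4, the receptor chain for VCAM-1. Itgb2 measured 7.25, 7.25, 5.98 and 7.35 in Ctrl and 7.68, 6.21, 7.22 and 7.59 in Ctnnb1OE-EC, with 1 low sample in each group. Itgal, Itgam, Itga4 and Itgb5 were likewise lowest in Ctrl sample 3 and, within their group, in Ctnnb1OE-EC sample 2. Relative to the Ctrl mean, the 7 Kupffer cell markers, all above the array median, averaged 0.85, 0.29, -0.996 and -0.15 in Ctrl and 0.04, -1.14, -0.03 and 0.73 in Ctnnb1OE-EC. The same samples, Ctrl 3 and Ctnnb1OE-EC 2, were thus the lowest of their groups for these 5 integrins and for the Kupffer cell markers. This was not particular to Kupffer cells: the same 2 samples were the lowest of their groups for the marker means of neutrophils and monocytes (-0.41 and -0.07), B cells (-0.50 and -0.28), stellate cells (-1.30 and -0.37) and cholangiocytes (-0.60 and -0.18). It was not general either. The lowest were Ctrl 1 (-0.13) and Ctnnb1OE-EC 4 (-0.38) for T and NK cells and Ctrl 2 (-0.91) and Ctnnb1OE-EC 3 (-2.02) for hepatocytes. For smooth muscle they were Ctrl 1 (-1.18) and Ctnnb1OE-EC 1 (-0.70). Platelet and lymphatic endothelial markers shared Ctrl 3 but not Ctnnb1OE-EC 2. Between the groups, the Ctnnb1OE-EC mean exceeded the Ctrl mean for 8 of the 8 neutrophil and monocyte markers, by a median of 0.40, and none of them passed. The 5 integrin genes were chosen after their values were seen, and the part of any of these cell types in them was not tested.

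Between the groups these genes differed by 0.22 for Itgb2, -0.09 for Itgal, 0.40 for Itgam, 0.35 for Itga4 and 0.11 for Itgb5, and none passed (adjusted p from 0.782 to 0.950). Itgax, the alpha chain of CD11c, measured 3.77, 3.78, 3.94 and 4.33 in Ctrl and 5.39, 3.62, 4.58 and 4.19 in Ctnnb1OE-EC. Its Ctnnb1OE-EC values held both the lowest and the highest of the 8, and the difference of 0.49 (SE 0.33) did not pass (limma adjusted p = 0.642). Itgb7, whose chain pairs with alpha4 or alphaE in lymphocytes, was highest in Ctrl sample 3 (6.06, against 4.76 to 5.30 in the other 7) and differed by -0.33 (adjusted p = 0.689). Itgad and Itgae, below the array median, differed by 0.01 and 0.03 (adjusted p = 0.992 and 0.961).

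Itga8 encodes alpha8, which hepatic stellate cells carry. It measured 10.12, 9.77, 7.61 and 10.02 in Ctrl and 9.75, 9.39, 9.28 and 8.89 in Ctnnb1OE-EC, so a single Ctrl sample stood far below the rest and the groups overlapped. The 8 stellate cell markers, all above the array median, averaged 0.85, -0.06, -1.30 and 0.52 in Ctrl and 0.12, -0.37, 0.06 and -0.01 in Ctnnb1OE-EC, and Ctrl sample 3 was the lowest for these as well. The part of stellate cells was not tested. The difference of Itga8 was -0.05, with an interval of -1.19 to 1.09 (adjusted p = 0.983).

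**Figure D3:**
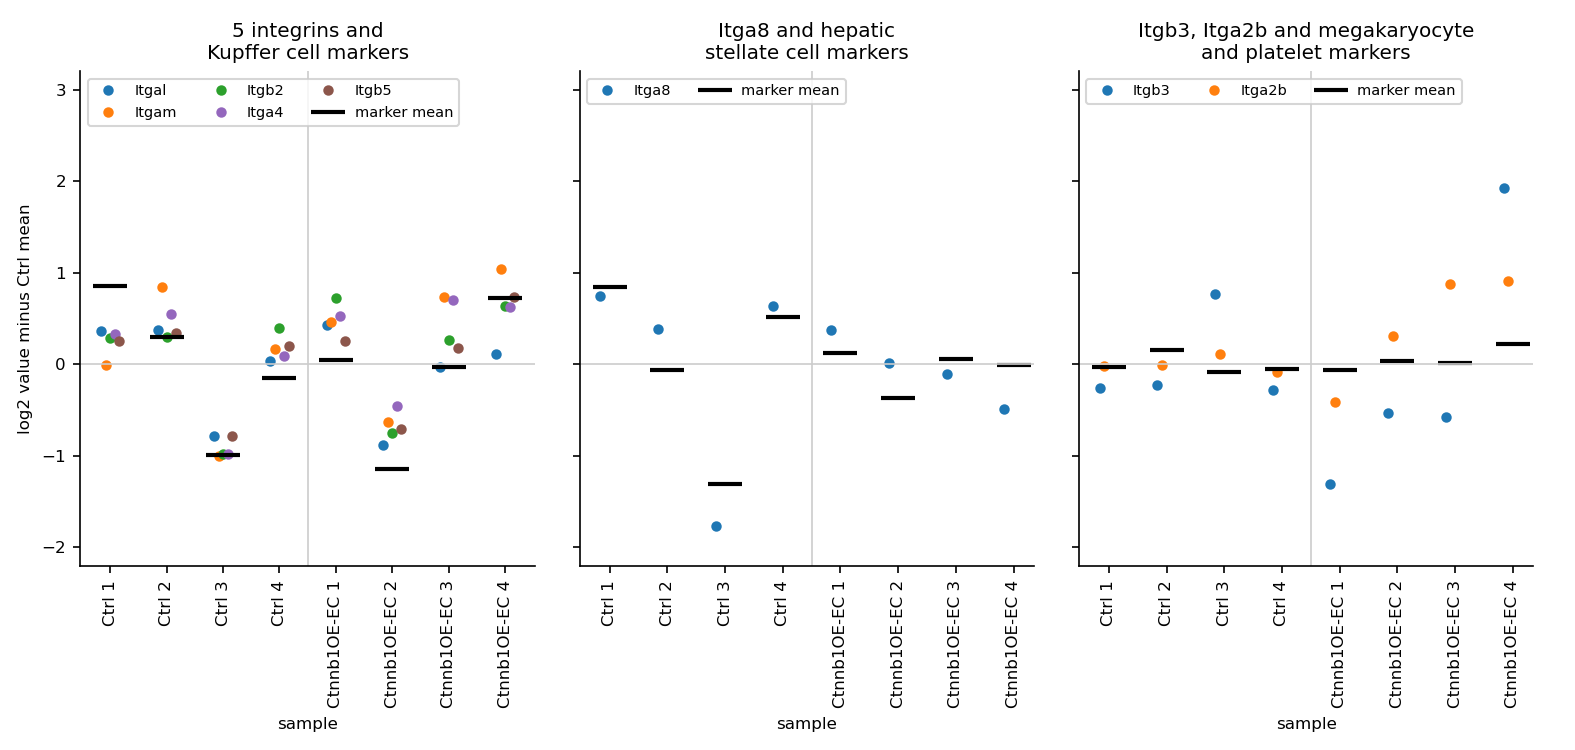
Log2 value minus the Ctrl mean (y axis) in each of the 8 samples (x axis) for integrin genes (points) beside the mean of the markers of 1 cell type (black bars): Kupffer cells, hepatic stellate cells, and megakaryocytes and platelets. Ctrl sample 3 is low in the first and second panels, at -0.996 and -1.30 for the marker means, and Itgb3 in the last panel spreads much more widely than the marker mean, which stays between -0.08 and 0.22.

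Among the laminins, Lamc1 encodes gamma1, the gamma chain of the vascular laminins. It measured 8.33, 8.71, 8.53 and 8.44 in Ctrl and 8.77, 9.12, 9.15 and 9.12 in Ctnnb1OE-EC. The groups did not overlap, and 3 of the Ctnnb1OE-EC samples were nearly equal while sample 1 lay just above the highest Ctrl sample. The mean went from 8.50 ± 0.16 to 9.04 ± 0.18 (SD, n = 4 each), a difference of 0.54 (SE 0.12, 95% interval 0.26 to 0.82) or 1.45-fold, which did not pass (limma adjusted p = 0.103, exact two-sided permutation p = 0.0286). No alternative brought it past the threshold (adjusted p from 0.0555 to 0.383). Lamc3 differed by -0.01 (adjusted p = 0.989).

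Lama3 encodes the alpha3 chain of epithelial laminin. It measured 6.61, 6.55, 6.75 and 6.31 in Ctrl and 6.15, 6.25, 5.89 and 5.10 in Ctnnb1OE-EC. The groups did not overlap, though Ctnnb1OE-EC sample 2 came close to the lowest Ctrl sample and sample 4 was far lower. The mean went from 6.55 ± 0.18 to 5.85 ± 0.52 (SD, n = 4 each), a difference of -0.71 (SE 0.24, 95% interval -1.24 to -0.18) or 1.63-fold lower, which did not pass (limma adjusted p = 0.274). Without Ctnnb1OE-EC sample 4 the difference was -0.46. Lamb3, which encodes its beta partner, was below the array median and differed by 0.01 (adjusted p = 0.985).

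The chains of vascular laminin other than gamma1 differed little or within wide intervals. Lama4 ranged from 9.56 to 9.83 in Ctrl and from 9.43 to 9.99 in Ctnnb1OE-EC, with a difference of -0.09 and an interval of -0.39 to 0.22 (adjusted p = 0.877). Lama5 ranged from 6.37 to 7.23 and from 6.51 to 7.22, and differed by 0.02 (adjusted p = 0.986). Lamb2 differed by -0.03 with an interval of -0.27 to 0.20 (adjusted p = 0.943). Lamb1 measured 6.04, 5.32, 4.34 and 5.27 in Ctrl and 5.33, 5.34, 6.01 and 6.04 in Ctnnb1OE-EC. Its groups overlapped, with Ctrl sample 3 the lowest again, and the difference of 0.44 did not pass (adjusted p = 0.688). Lama1 and Lama2, chains of embryonic and of muscle laminin, were below the array median and differed by -0.13 and 0.17 (adjusted p = 0.893 and 0.745).

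Genes that work with these receptors and ligands, 108 in 6 lists, held 2 calls, 1 higher and 1 lower (1.85%, beside 0.920% of all rows), with 63 higher and 45 lower means and a median of 0.10. Fn1, which encodes fibronectin, the ligand of alpha5beta1 and of alphav integrins, measured 8.33, 7.67, 6.65 and 8.45 in Ctrl and 10.27, 9.29, 11.17 and 10.998 in Ctnnb1OE-EC. Every Ctnnb1OE-EC sample was above every Ctrl sample. Within the groups Fn1 was lowest in Ctrl sample 3 and Ctnnb1OE-EC sample 2. The marker means of Kupffer cells, neutrophils and monocytes, B cells, stellate cells and cholangiocytes were lowest in the same samples. The Kupffer cell marker mean ran from -0.996 to 0.85 in Ctrl and from -1.14 to 0.73 in Ctnnb1OE-EC. The part of other cell types in Fn1 was not tested. Fn1 rose by 2.66 (SE 0.48, 95% interval 1.57 to 3.75) or 6.31-fold (limma adjusted p = 0.0448), a call that held in 7 of 18 alternatives (adjusted p up to 0.264). It was lost without any 1 sample except Ctnnb1OE-EC sample 2 (up to an adjusted p of 0.146), with the replicate block (adjusted p = 0.118), with a trended robust prior (adjusted p = 0.108) and by the methods' test as rerun here (adjusted p = 0.194). The fibronectin receptor chains Itga5, Itgav and Itgb1 differed by 0.09, -0.17 and -0.05. Among the 25 matrix ligands 17 were higher and 8 lower (median 0.34), and Fn1 was the only one called. Vwf, which platelets and endothelium release, differed by 1.75 (adjusted p = 0.253), Egfl6 by -0.36 (adjusted p = 0.323) and Tgfbi by 0.79 (adjusted p = 0.406).

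Of the 34 adaptors and activators inside the cell, 19 were higher and 15 lower (median 0.02), and Lims2 alone was called. It encodes PINCH2, which binds integrin-linked kinase at focal adhesions. It measured 7.64, 8.21, 8.68 and 8.27 in Ctrl and 6.86, 6.12, 6.37 and 7.01 in Ctnnb1OE-EC, with no overlap. Lims2 fell by 1.61 (SE 0.25, limma adjusted p = 0.0228), and the call held in 10 of 18 alternatives. It was lost without Ctrl sample 2, 3 or 4 or Ctnnb1OE-EC sample 3 (adjusted p up to 0.0871), with the replicate block (adjusted p = 0.105) and by the methods' test as rerun here (adjusted p = 0.141). Actn1, the actin crosslinker alpha-actinin-1, differed by 0.56 (adjusted p = 0.142), Kank1, which binds talin at the rim of adhesions, by 0.75 (adjusted p = 0.168), and Parva, the parvin of the same kinase complex as PINCH2, by 0.26 (adjusted p = 0.270).

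None of the other 4 lists held a call by limma. By its own test the paper lists Cd47, a membrane protein given below, as significantly lower. Of 17 basement membrane partners of laminin, 7 were higher and 10 lower (median -0.05), with differences of 0.39 for the collagen-binding Sparc (adjusted p = 0.102), -0.52 for Tinagl1 (adjusted p = 0.155) and 0.44 for agrin, Agrn (adjusted p = 0.210). Among 11 other laminin receptors 8 were higher and 3 lower (median 0.14), and the smallest p belonged to the syndecan Sdc1 at -0.56 (adjusted p = 0.409). Among 10 membrane proteins that associate with integrins 7 were higher and 3 lower (median 0.18), including the thrombospondin receptor Cd47 at -0.32 (adjusted p = 0.132), the tetraspanin Cd63 at 1.22 (adjusted p = 0.138) and the urokinase receptor Plaur at 1.01 (adjusted p = 0.206). Of 11 cell-surface counter-receptors of integrins, 5 were higher and 6 lower (median -0.06), with Thy1 at 0.56 (adjusted p = 0.135), Jam3 at 0.44 (adjusted p = 0.230) and Vcam1, the ligand of alpha4, at 0.65 (adjusted p = 0.330).

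**Figure D4:**
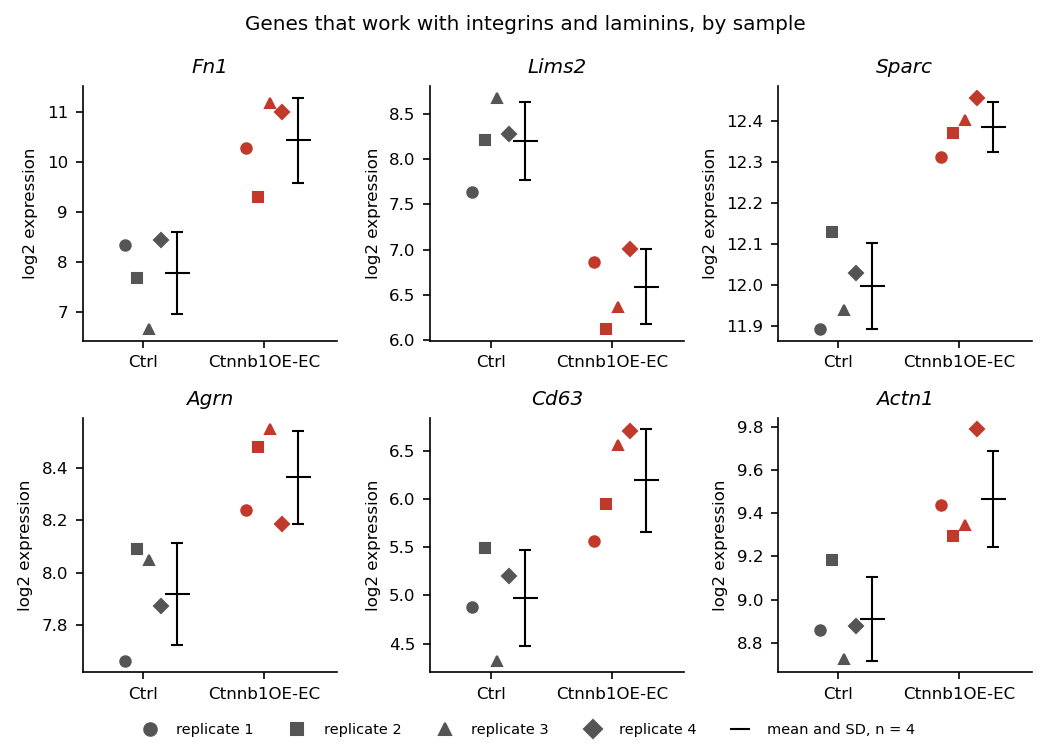
Log2 expression (y axis, a separate scale in each panel) of 6 genes that work with integrins and laminins, chosen after their values were seen, in the Ctrl and Ctnnb1OE-EC samples (x axis); each symbol is 1 array, shaped by replicate number, and the bars give the mean and SD (n = 4). The groups do not overlap in any of the 6 panels, as for 16 of all 108 listed genes (14.8%, against 7.59% of all rows). Fn1, higher by 2.66, and Lims2, which fell by 1.61, are the 2 that passed the test.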

How the data were processed

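LSEC RNA of 8 samples, each pooled from 2 mice, was measured on Affymetrix MoGene-2_0-st arrays. The deposited values are log2 expression, made by the authors with RMA background correction and quantile normalization under a custom CDF of version 22 that groups probes by Entrez gene; the version of RMA is not given in the sources used here. Sorted columns differed by at most 0.00183, no pair of samples was identical, and 0 columns belonged to no sample. Of 25428 rows, 25237 were named through RefSeq and 32 through the platform annotation alone, and 159 had no name. The number of arrays limits the precision.

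Groups were compared with limma 3.58.1 (R 4.3.3, statmod 1.5.0) on all rows without a filter, p-values being adjusted by Benjamini-Hochberg across every row and called under 0.05. The model was tested on simulated data first. Single genes also had an exact two-sided permutation test over 70 assignments, which can reach 0.0286. The p-values measure the spread between pools of mice. The members and gene lists were chosen with earlier results of these data known. Of the members 36 are given, and 1 enters the counts but is not reported here; those called and the 10 with the smallest p have every sample, partner lists their called genes or otherwise up to 3 with the smallest p, and marker lists their means; in lists with a call, the next 3 genes were added after their values were seen. Probe sets of different genes were not compared in level. The labels and sources used here give no batch or scan date. Alternatives were the methods' test, a trended robust prior, array weights, repeated scaling, filters on low rows, other thresholds, the replicate number as a block and leaving out samples.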

Additional observations from a re-analysis of the deposited data

Results flagged for a closer look

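In 8 of the 72 groups of 4 samples, over 8 of 36 genes, 1 sample lay apart from the other 3 by a gap above Dixon's 95% critical value for the range of its group; chance gives this in about 1 in 20 groups. Ctrl sample 3 was the sample apart in 4 of them. It was low for Itga8 (7.61, the nearest sample at 9.77), for Itgb2 (5.98, the nearest at 7.25) and for Itgb5 (6.63, the nearest at 7.61), and high for Itgb3 (8.48, the nearest at 7.49). Ctrl sample 1 was low for Itga2 (3.23, the nearest at 3.72) and high for Itga10 (3.29, the nearest at 3.197), both below the array median. In Ctnnb1OE-EC, sample 1 was low for Lamc1 (8.77, the nearest at 9.12) and sample 2 was low for Itga4 (5.10, the nearest at 6.08). The Kupffer and stellate cell marker means of Ctrl sample 3 were -0.996 and -1.30, and their part in these values was not tested.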

How the results depend on the processing

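Of 653 values of the 37 genes under 18 of the 20 alternatives (all but the 2 other thresholds), 640 kept their direction or stayed uncalled, 12 lost the call, 1 gained it and none reversed; 59 uncalled values changed sign, in 20 genes. Itga1, the 1 gene called, was lost and 0 members were called by the methods' test as rerun here, whose software and settings may differ from the study's (20 of all rows, against 234), with the replicate block (86), without Ctnnb1OE-EC samples 3 and 4 together (61), without Ctrl sample 3 and Ctnnb1OE-EC sample 2 together (149, an alternative chosen after seeing the data) and at a threshold of 0.01 (68). At a threshold of 0.1, 2 members were called, Itga1 and Itga6 (386 of all rows). Leaving out 1 sample gave 0 to 1 members, the 1 being Itga6 without Ctrl sample 3, and 92 (without Ctrl sample 4) to 223 (without Ctnnb1OE-EC sample 2) of all rows. A stricter threshold gives fewer calls by construction. Leaving out samples need not, since Itga6 gained a call without Ctrl sample 3. Otherwise the cause was not tested. The adjusted p of Itga1 ran from 0.00896 to 0.197 and that of Itga6 from 0.0262 to 0.320. The median differences of both families moved by less than their spread. The deviations of same-numbered samples correlated at 0.25, -0.18, 0.03 and -0.15, and only number 1 correlated best with its own. With so few samples these values cannot decide if equal numbers mark a common day or litter, and this remains unknown. The number of arrays limits the precision, and detection calls were not used here.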
